A study of Homo sapiens with 52 samples.

Results

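BMP signalling genes were followed in WI-38 cells, a line of normal human lung fibroblasts, as the cells entered senescence. The 9 genes were chosen by symbol. They are the ligands BMP2, BMP4 and BMP6, the antagonist GREM1, the target genes ID1, ID2, ID3 and ID4, and the inhibitory SMAD gene SMAD6. All 9 are among the 59408 genes that each deposited table lists, and 8 of them are among the 15479 genes with a mean level of at least 10 normalised read counts over the groups, which were tested. ID3 was under that level. WI-38 cells were exposed for 24 h to 0.009% SDS, a detergent that damages the plasma membrane, to medium with 75 mM KCl, which raises calcium influx, or to 250 nM doxorubicin (DXR), which damages DNA, and were then washed. The senescent cells that follow are called PMD-Sen, Ca2+-Sen and DDR-Sen, respectively. They were collected daily from day 0, the end of the exposure, to day 4, and then on day 6, day 8 and day 16. Replicatively senescent cells (RS) had been passaged to about population doubling level 52. Untreated cells, which carried no treatment, and the cells exposed to SDS, KCl or DXR are all labelled as level 32 to 46. The level of each library within that range is not given. All groups come from this one wild-type line, so nothing here speaks of other fibroblasts. There were 2 libraries in each of 26 groups, which the study's methods call independent samples. Nothing in the labels says that these were separate cultures, and p-values then measure only the spread between libraries, which may be technical.

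Bone morphogenetic proteins (BMPs) are secreted ligands of the TGF-β superfamily. They bind pairs of serine/threonine kinase receptors, which phosphorylate SMAD1, SMAD5 and SMAD9, and these enter the nucleus with SMAD4 and switch on target genes. ID1 to ID4 are the classic targets. ID proteins have a helix-loop-helix domain but no DNA-binding region, and hold back E proteins such as TCF3, TCF4 and TCF12. SMAD6 is induced by the same signal and blocks it, and GREM1 binds BMPs outside the cell. In fibroblasts, ID1 is also known as a serum-induced gene and a repressor of the cell cycle inhibitor CDKN2A.

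The starts of 3 genes are shown first, since SMAD6 fell in more comparisons than any other of the 9 genes and ID1 and ID4 had the widest range among the ID genes. Each sequence is the 250 bases before the RefSeq transcription start (GRCh38.p14, plus strand). For SMAD6 it is chr15:66701986-66702235, for ID1 chr20:31605039-31605288 and for ID4 chr6:19837120-19837369. Capitals mark GTCTAGAC, the palindrome that SMAD proteins bind, in SMAD6, and TATAAA, the TATA box, in ID1 and ID4. In ID1 the capitals join TATAAA on both strands, which overlap.
SMAD6: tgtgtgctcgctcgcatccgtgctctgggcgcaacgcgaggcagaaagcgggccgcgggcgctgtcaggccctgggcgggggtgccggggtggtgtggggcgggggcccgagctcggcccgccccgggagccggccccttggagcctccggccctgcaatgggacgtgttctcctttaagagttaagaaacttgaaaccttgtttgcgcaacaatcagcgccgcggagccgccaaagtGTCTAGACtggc
ID1: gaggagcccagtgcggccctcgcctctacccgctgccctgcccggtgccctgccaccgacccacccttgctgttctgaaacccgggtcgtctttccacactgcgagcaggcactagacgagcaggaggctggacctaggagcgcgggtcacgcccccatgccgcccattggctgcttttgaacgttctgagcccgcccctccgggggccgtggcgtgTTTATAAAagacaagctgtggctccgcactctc
ID4: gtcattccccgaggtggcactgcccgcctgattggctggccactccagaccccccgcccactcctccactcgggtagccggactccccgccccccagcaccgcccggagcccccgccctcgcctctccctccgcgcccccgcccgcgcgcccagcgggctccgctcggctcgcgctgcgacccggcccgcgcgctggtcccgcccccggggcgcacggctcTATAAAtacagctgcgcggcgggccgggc

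The palindrome in SMAD6 begins 12 bases before the start site. TATAAA begins 31 bases before it in ID1 and 29 bases in ID4. A search on both strands of 34943 RefSeq promoters of 300 bases (250 before and 50 after the start) found GTCTAGAC in 0.203%, TATAAA in 11.6%, GGCGCC, a sequence of BMP-responsive elements, in 19.2%, and TGACG, the core of the cyclic AMP response element, in 24.5%. Of the 9 genes, 8 had a promoter in that table. GGCGCC occurred in 1 promoter each of BMP4 and GREM1, and TGACG in that of ID3. These matches describe the letters in the window and show no binding.

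GENCODE v29 (GRCh38) places ID1 (ENSG00000125968.8) on chromosome 20 from 31605283 to 31606515, plus strand, with 1233 exonic bases. SMAD6 (ENSG00000137834.14) lies on chromosome 15 from 66702228 to 66782848, and BMP4 (ENSG00000125378.15) on chromosome 14 from 53949736 to 53958761, minus strand. GREM1, ID2 and ID4 each overlap a gene on the opposite strand (AC090877.2, ID2-AS1 and AL022068.1), and SMAD6 overlaps AC013564.1. Whether reads were counted by strand is not given in the sources used here, so reads of these partners cannot be told apart.

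The tables hold, for each gene, a mean normalised read count over 4 libraries, a log2 fold change against the same pair of untreated libraries, and its standard error (SE). Levels were computed from these and put on one scale, and the read counts of single libraries were recovered from the digits of the means. The untreated libraries were the smallest, with about 15.4 M and 18.8 M counted reads (M, mega). The PMD-Sen libraries held 19.1 M to 51.7 M, Ca2+-Sen 20.7 M to 52.1 M, DDR-Sen 20.8 M to 53.5 M and RS 45.2 M and 58.0 M. As all 25 comparisons use the untreated pair, an error in it enters each of them.

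That pair differed for the ID genes. ID1 had 2346 normalised counts in the smaller untreated library and 1022 in the larger, a 2.30-fold gap from 1242 and 659 reads. ID2 had 1528 and 715, and ID4 had 86.9 and 23.3, from 46 and 15 reads. BMP4 had 886 in the smaller and 1374 in the larger, a 1.55-fold gap in the other direction. SMAD6, with 719.7 (smaller) and 629.7 (larger), and BMP2, with 521 and 374, were closer. The median SE of the log2 fold changes over the 25 tables was 0.61 for ID1, and 99.8% of the 2545 genes of similar level (within 1.5-fold) had a smaller one. For ID2 this share was 99.5%, for BMP4 99.4%, for BMP2 92.6%, for ID4 90.6% and for SMAD6 50.3%. Called values of the ID genes are given below with and without each untreated library.

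Fibroblast markers were present in all groups. All 8 of the list (COL1A1, COL1A2, DCN, LUM, THY1, PDGFRA, PDGFRB, VIM) had a mean of at least 10, with COL1A1 the most abundant. Their summed level was 720538 in untreated cells. In the other groups it ran from 306882 in Ca2+-Sen on day 0 to 749286 in Ca2+-Sen on day 8, and its part in the results was not tested. Of the other lists, CDH5 (endothelial), KRT5 and KRT14 (epithelial), MYH11 (smooth muscle) and CD3E (leukocyte) had a mean under 1. The endothelial sum was almost wholly TEK, at 2920 in untreated cells and 1192 to 6852 elsewhere, and the epithelial sum was mostly KRT19, at 1236 and 287 to 2678. The endothelial sum was lowest in PMD-Sen on day 1 and the epithelial sum in Ca2+-Sen on day 0, and their part there was not tested. Of 4 smooth muscle markers, 3 had a mean of at least 10. The sum of the list was 13183 in untreated cells, and ran elsewhere from 4117 in PMD-Sen on day 1 to 22710.3 in PMD-Sen on day 3. ACTA2, also a gene of activated fibroblasts, was the most abundant (9094 in untreated cells). The part of these markers in the results was not tested. Of 5 leukocyte markers, 1 had a mean of at least 10, and the sum of the list lay between 21.7 and 260.3, with CD14 the most abundant. Both the endothelial and the leukocyte sum were highest in Ca2+-Sen on day 8, where TEK was at 6852 and CD14 at 256 (27.3 in untreated cells), and their part in the results of that group was not tested. The 5 markers of cycling cells (MKI67, TOP2A, CCNB1, CDK1, BUB1) summed to 15237 in untreated cells. In PMD-Sen they summed to 2292 on day 0, 10447 on day 1 and 2189 on day 16. Ca2+-Sen had 3598 on day 0, 8413 on day 1, 2187 on day 8 and 7011 on day 16. DDR-Sen had 378 to 1522, with 773 on day 16, and RS had 768. The part of cycling in the results below was not tested.

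A gene was called where its p-value, adjusted by the Benjamini-Hochberg method over all tested genes, was under 0.05. The 8 tested genes gave 51 calls in 200 gene comparisons with untreated cells (25.5%), beside 18.5% over all tested genes. SMAD6 gave 14 of them, all lower, BMP4 gave 12 (7 higher, 5 lower) and BMP2 gave 9 (7 higher, 2 lower). ID1 was called 7 times (1 higher, 6 lower), ID4 5 times (1 higher, 4 lower), BMP6 3 times and ID2 once. GREM1 was not called, and its p-value was under 0.05 before adjustment in 0 of 25 comparisons.

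In PMD-Sen, 3 of the 8 genes fell on day 0 (ID1, BMP4 and SMAD6), where 38.3% of all tested genes were called. On day 1, 2 rose and 1 fell (18.8% of all tested genes), on day 2 the calls were 2 falls (15.1%), on day 3 there was 1 (10.9%) and on day 4 there were 2 (14.9%). SMAD6 alone was called on days 6 (12.1%) and 8 (11.2%). On day 16 BMP4 rose while ID1 and ID4 fell (20.3%).

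Ca2+-Sen began with 2 rises and 1 fall on day 0, when 48.5% of all tested genes were called. A single gene fell on each of days 1 (11.9%), 2 (4.12%), 3 (9.95%) and 6 (9.68%), and ID1, ID4 and SMAD6 fell on day 4 (11.5%). On day 8 both BMP2 and BMP4 rose while ID1 and ID4 fell (31.9%), and on day 16 BMP2 and BMP4 rose and SMAD6 fell (11.3%).

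In DDR-Sen, BMP2, ID2 and ID4 rose and BMP4 fell on day 0 (26.7% of all tested genes called). The Wald test called 0 of the 8 genes on day 1 (18.6%) and on day 2 (12.1%), although 5 and 2 of them had an unadjusted p under 0.05, beside 28.1% and 20.9% of all tested genes. SMAD6 fell on days 3 (11%) and 4 (17.6%), and on day 6 BMP2 rose and SMAD6 fell (23.4%). BMP2 and BMP4 rose while ID1 and SMAD6 fell on day 8 (21%), and on day 16 BMP4 and BMP6 rose and again ID1 and SMAD6 fell (28.7%). In RS, BMP4 and BMP6 rose (22.3%).

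In many comparisons the share of the 8 genes called was near that of all tested genes, and the description below therefore rests on single genes. The median log2 fold change of the 8 genes was -0.87 in PMD-Sen on day 0, 0.56 on day 1 and -0.21 on day 16. It was 0.16 in Ca2+-Sen on day 0, -1.08 on day 4 and -0.48 on day 16, and 0.46, -0.90 and -0.29 in DDR-Sen on the same days. The median over all tested genes stayed between -0.03 and 0.02 in all 25 comparisons.

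**Figure D1:**
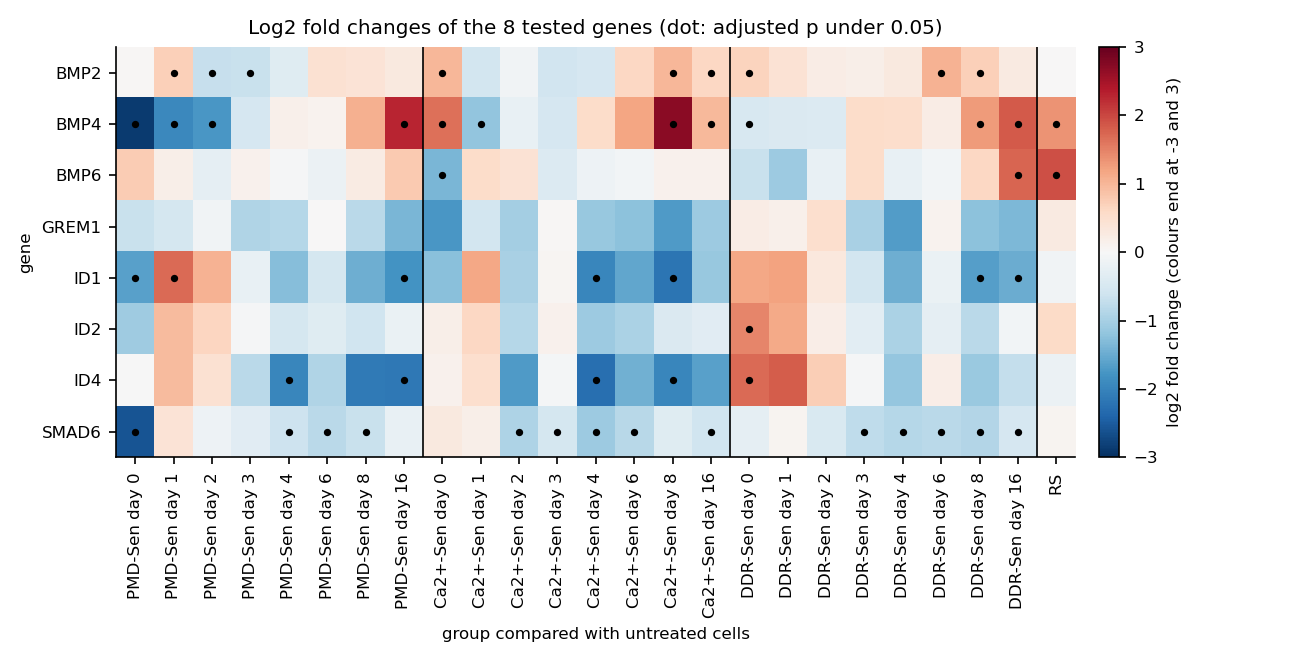
Log2 fold change against untreated cells (colour, ending at -3 and 3) of the 8 tested genes (vertical axis) in the 25 comparisons (horizontal axis, by inducer and day). Dots mark an adjusted p under 0.05, and BMP4 runs from -2.86 in PMD-Sen on day 0 to 2.71 in Ca2+-Sen on day 8.

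BMP4, a ligand that signals mainly through the type I receptors BMPR1A and BMPR1B, had the widest range of the 8 genes, from 155.7 normalised counts in PMD-Sen on day 0 to 7420 in Ca2+-Sen on day 8, 47.7-fold. The untreated libraries held 886 (smaller) and 1374 (larger). On day 0 PMD-Sen held 169.8 and 142, a log2 fold change of -2.86 (SE 0.23, adjusted p = 3.1e-33). Both libraries thus lay far below both untreated ones. In a bulk sample, fewer cells with the transcript and less transcript per cell cannot be told apart. BMP4 then came back by stages. It had 249 and 340.4 normalised counts on day 1, 389 and 284 on day 2, 617 and 977 on day 3 and 1105 and 1399.8 on day 4. Days 1 and 2 stayed below the untreated range and days 3 and 4 overlapped it. Day 8 had 1421 and 3274, above that range, without a call (1.06, SE 0.65, adjusted p = 0.37). By day 16 PMD-Sen had 6941 and 4029, above both untreated libraries, and BMP4 was higher by 2.28 on the log2 scale (SE 0.50, adjusted p = 9.1e-05).

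Ca2+-Sen gave the opposite start. On day 0 its libraries had 3364 and 3723 normalised counts of BMP4, a log2 fold change of 1.65 (SE 0.32, adjusted p = 1.5e-06). On day 1 they had 515 and 479.8, a change of -1.19 (SE 0.18, adjusted p = 6.4e-09). BMP4 therefore went from above both untreated libraries to below both within 1 day after the wash. Days 2 and 3 overlapped the untreated range. Days 4 and 6 had both libraries above it (1516 and 1794, then 1578 and 3532) but were not called, with adjusted p = 0.37 and 0.29. On day 8 the libraries had 7614 and 7227, the highest level of the 26 groups, and on day 16 they had 2196 and 2241. Both were called, at log2 fold changes of 2.71 (SE 0.31) and 0.97 (SE 0.31).

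In DDR-Sen, BMP4 was 810.5 and 803 normalised counts on day 0, just under the lower untreated library, with a log2 fold change of -0.49 (SE 0.19, adjusted p = 0.043). Without the smaller untreated library this was -0.77, and without the larger -0.13. The call was lost with no filter on low levels. Both libraries were above the untreated pair on day 3 (1896 and 1395) and day 4 (1734 and 1540.2) without a call (adjusted p = 0.49 and 0.31). The next call was on day 8, when the libraries had 2821 and 2671 (log2 fold change 1.28, SE 0.17, adjusted p = 2.3e-12). Day 16 had 4349 and 3753 (1.84, SE 0.18, adjusted p = 1.9e-23). RS had 3748 and 1962 (1.34, SE 0.35, adjusted p = 0.0015). The late groups called higher are ordered here by level, and groups without a call are left out. Ca2+-Sen on day 8 came first, then PMD-Sen on day 16, DDR-Sen on day 16, RS, DDR-Sen on day 8 and Ca2+-Sen on day 16. On day 16 the libraries of PMD-Sen overlapped those of DDR-Sen, so these groups did not differ beyond their spread. Those of RS spanned DDR-Sen on day 8 and Ca2+-Sen on day 16, so RS did not differ from either beyond its spread. The libraries of DDR-Sen on day 8 (2821 and 2671) and Ca2+-Sen on day 16 (2196 and 2241) did not overlap. Their difference was not tested.

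BMP2, a ligand closely related to BMP4, moved over a narrower range, 275.3 to 919 normalised counts (3.34-fold). The untreated libraries had 521 (smaller) and 374 (larger). On day 0 the Ca2+-Sen libraries had 870.0 and 913, a log2 fold change of 1.00 (SE 0.18, adjusted p = 8.2e-08). On day 1 both were below the untreated range, at 300.3 and 304.8, which was not called (adjusted p = 0.061). Days 8 and 16 were again above it, at 930.0 and 849, then 692 and 681, with log2 fold changes of 1.00 (SE 0.18) and 0.62 (SE 0.19). BMP2 was thus called higher in Ca2+-Sen on the same 3 days as BMP4.

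PMD-Sen showed a short rise of BMP2 on day 1, with 837 and 634 normalised counts (log2 fold change 0.72, SE 0.21, adjusted p = 0.0047). It was below the untreated range on day 2, at 248 and 301 (-0.70, SE 0.21), and on day 3, at 282 and 281 (-0.66, SE 0.23). In DDR-Sen the largest value came on day 6, with 998 and 838 (1.04, SE 0.19, adjusted p = 7.5e-07). Days 0 and 8 of DDR-Sen were also called, at 0.68 (SE 0.21) and 0.72 (SE 0.20). In RS the libraries disagreed, with 265 in the smaller and 632 in the larger, on either side of the untreated pair.

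BMP6, a ligand of a second subgroup of BMPs that prefers ACVR1 among type I receptors, was low, with 81.2 and 62.0 normalised counts in the untreated libraries (43 and 40 reads). It was highest in RS, with 319 and 230.3 (log2 fold change 1.94, SE 0.36, adjusted p = 1.1e-06). DDR-Sen on day 16 had 264 and 215 (1.75, SE 0.34, adjusted p = 3.2e-06). Both groups lay well above the untreated pair. PMD-Sen on day 16 had 108.8 and 138, also above it, and was not called (0.79, SE 0.41, adjusted p = 0.17). Ca2+-Sen on day 0 had 41.2 and 14.99, from 42 and 28 reads, and was called lower (-1.38, SE 0.57, adjusted p = 0.034). Leaving out one of its libraries moved that value to between -2.26 and -0.80.

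GREM1, a secreted antagonist that binds BMP2 and BMP4, was just above the filter for low levels, at a mean of 12.4 normalised counts over the groups. The untreated libraries had 14 and 6 reads, or 26.4 and 9.31 normalised counts. Over the treated groups its level ran from 5.36 (Ca2+-Sen, day 0) to 24.996 (DDR-Sen, day 2), and the median SE of its log2 fold change was 1.01. Both libraries were below both untreated ones in 6 groups, PMD-Sen, Ca2+-Sen and DDR-Sen on day 16, Ca2+-Sen on days 0 and 8 and DDR-Sen on day 4, without a call.

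**Figure D2:**
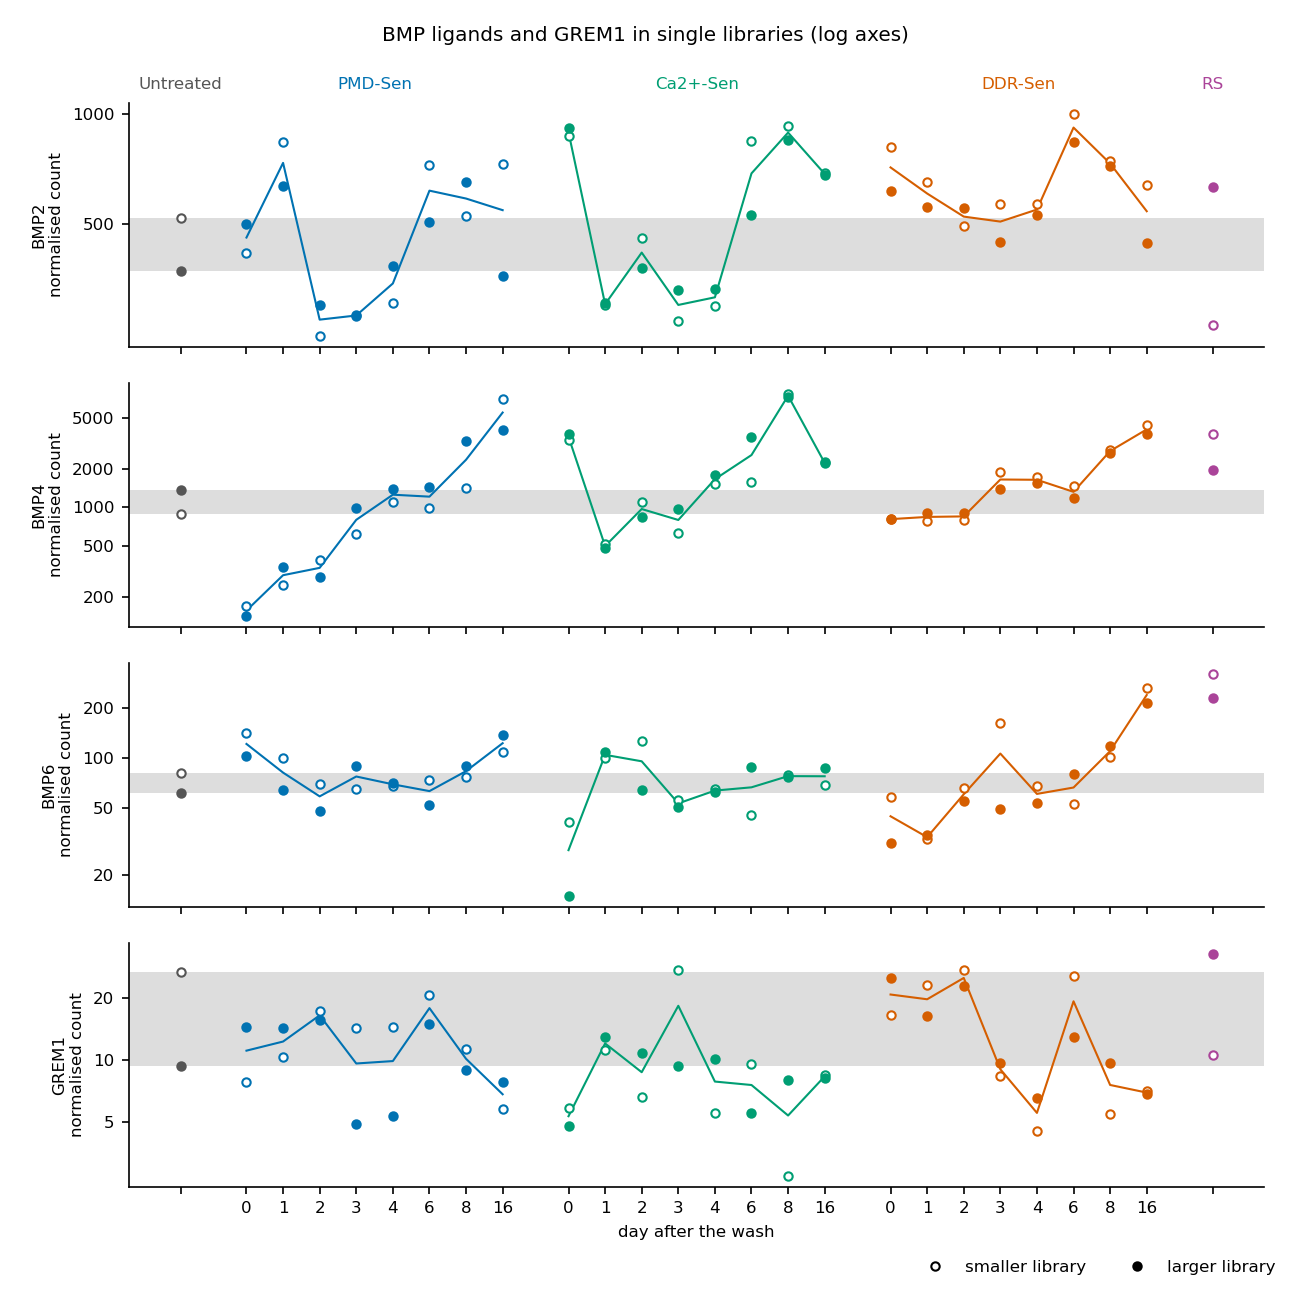
Normalised read counts (vertical log axes) of BMP2, BMP4, BMP6 and GREM1 in single libraries by inducer and day after the wash (horizontal axis). Open circles are the smaller and filled circles the larger library of a group, lines join the means of both, and grey bands span the untreated pair. BMP4 runs from 155.7 in PMD-Sen on day 0 to 7420 in Ca2+-Sen on day 8.

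Per kilobase of exon, the untreated levels were 1366 for ID1, 509 for ID2 and 23.4 for ID4, beside 367 for BMP4, 124 for BMP2, 78.8 for SMAD6, 25.7 for BMP6 and 1.22 for GREM1. ID1 was thus the most abundant transcript of the set in untreated cells on that scale, with ID2 next by the mean. The untreated libraries disagreed on ID2 and BMP4. The smaller held 1528 normalised counts of ID2 and 886 of BMP4, and the larger 715 and 1374. Over the treated groups the median level per kilobase was 701 for ID1, 427 for BMP4 and 423 for ID2. ID3 was listed at 0 in 23 of 25 tables. In the remaining 2 (PMD-Sen on day 6 and Ca2+-Sen on day 2) it did not exceed a level of 0.38. An absent transcript was not shown by this, since TUBB, a tubulin gene used by all cells and chosen here after its values were seen, was also low, at 6.15 to 22.8.

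ID1 was 10.1-fold higher on day 1 than on day 0 of PMD-Sen. On day 0 its libraries had 650.3 and 444 normalised counts, below both untreated ones (2346 and 1022), a log2 fold change of -1.62 (SE 0.63, adjusted p = 0.028). On day 1 they had 5319 and 5676, the highest level of the 26 groups and above both untreated libraries (1.71, SE 0.57, adjusted p = 0.018). The value of day 2 was also above, at 2937 and 4003, but was not called (1.04, SE 0.61, adjusted p = 0.3). ID1 then came down unevenly, with levels of 1452 on day 3, 696 on day 4, 1160 on day 6 and 615 on day 8, without a call. On day 16 its libraries had 500.2 and 479 (-1.78, SE 0.57, adjusted p = 0.012). Without the smaller untreated library the values of days 0, 1 and 16 were -0.90, 2.43 and -1.06, and without the larger they were -2.10, 1.23 and -2.26.

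Ca2+-Sen also started low. ID1 had 700.1 and 716 normalised counts on day 0, below both untreated libraries, without a call (-1.25, SE 0.56, adjusted p = 0.054), and 4235 and 3317 on day 1, above both, again without a call (1.16, SE 0.59). The level of ID1 was 864 on day 2 and 1740.5 on day 3, without a call. Day 4 had 509 and 360.4, called lower (-1.96, SE 0.61, adjusted p = 0.018). The lowest level came on day 8, with 374 and 365 (-2.19, SE 0.56, adjusted p = 5.9e-04). Leaving out an untreated library moved these to between -2.43 and -1.23 on day 4 and between -2.67 and -1.47 on day 8.

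In DDR-Sen the libraries were high at once. ID1 had 3711 and 3779 normalised counts on day 0 and 4669.9 and 3054 on day 1, above both untreated ones, and neither day was called (1.15, SE 0.57, adjusted p = 0.12 on day 0). The counts of day 1 were recovered only to close solutions. The level of ID1 was 610 on day 4 and 1475 on day 6, without a call. By day 8 it was at 487 and 585 (-1.65, SE 0.58, adjusted p = 0.024) and on day 16 at 505 and 694 (-1.49, SE 0.61, adjusted p = 0.049). The call of day 16 was lost with no filter, with centring and with scaling by library totals. Without the smaller untreated library days 8 and 16 had -0.93 and -0.77, and without the larger -2.13 and -1.97. RS gave no common direction, as its libraries had 558 and 2597, a 4.66-fold gap and the largest of the 26 groups.

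ID2 had its highest level in DDR-Sen on day 0, with 3012 and 3143 normalised counts, above both untreated libraries (1528 and 715). This was its one call (1.46, SE 0.52, adjusted p = 0.023), and it was lost with no filter on low levels. Without the smaller untreated library it was 2.11, and without the larger 1.01. In PMD-Sen the libraries went from 552 and 515 on day 0, below the untreated pair, to 1982 and 2381 on day 1, above it. Neither was called against untreated cells. Ca2+-Sen on day 0 had 1509 and 1033, within the untreated range, where ID1 was under it.

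ID4 was low, with 54.9 normalised counts in untreated cells. It rose in DDR-Sen on day 0, to 151 and 199, above both untreated libraries, from 239 and 359 reads (1.69, SE 0.46, adjusted p = 0.0017). Without the smaller untreated library this was 2.91, and without the larger 1.01. Day 1 had 248 and 141 and was not called (1.82, SE 0.92, adjusted p = 0.17). It fell in PMD-Sen on day 4, to 17.3 and 10.7 (-1.97, SE 0.72), and on day 16, to 13.6 and 11.3 (-2.14, SE 0.78). In Ca2+-Sen it fell on day 4, to 8.36 and 14.1 (-2.25, SE 0.76), and on day 8, to 18.4 and 9.64 (-1.97, SE 0.73). These 4 falls put both libraries below the lower untreated one, at 23.3. They rest on 6 to 20 reads a library, and without the smaller untreated library they lay between -1.05 and -0.73, and without the larger between -2.95 and -2.63.

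SMAD6, which binds activated BMP receptors and SMAD1 and so damps the signal, had the smallest median SE of the 8 genes, 0.18. Untreated libraries held 719.7 and 629.7 normalised counts. In PMD-Sen on day 0 they held 120.1 and 105.2 (-2.58, SE 0.23, adjusted p = 1.2e-26). No other log2 fold change of SMAD6 in the 25 comparisons went below -1.08. On day 1 it was back above the untreated range, at 831 and 959, without a call (0.41, SE 0.16, adjusted p = 0.055). It then fell again, to 491 and 388 on day 4 (-0.62, SE 0.18), 378 and 393 on day 6 (-0.81, SE 0.20) and 419 and 432 on day 8 (-0.66, SE 0.18). Day 16, at 631 and 524, was not called.

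In Ca2+-Sen, SMAD6 was above the untreated range on day 0 (752 and 884 normalised counts) and on day 1 (779 and 755), without a call. It fell on day 2, to 360.2 and 355 (-0.91, SE 0.18), and was lowest on day 4, at 323 and 313 (-1.08, SE 0.18, adjusted p = 1.8e-07). Days 3, 6 and 16 were also called lower, and day 8 was not, although both of its libraries (550.3 and 498) were under both untreated ones. In DDR-Sen it was not called on days 0, 1 and 2, with 459 and 655 on day 0. From day 3 to day 16 all 5 of its comparisons were called lower, with log2 fold changes between -0.87 (day 8) and -0.50 (day 16). The RS libraries had 543 and 892, on either side of the untreated pair. After all 3 inducers, both libraries were below the untreated pair on days 3, 4, 6 and 8. On day 3 PMD-Sen had 616 and 451 and was not called (-0.34, SE 0.20, adjusted p = 0.33), while Ca2+-Sen and DDR-Sen were. SMAD6 was called lower on each of days 4, 6 and 8 in PMD-Sen and DDR-Sen. In Ca2+-Sen it was called on days 4 and 6, and had come part of the way back by day 8. Its level there went from 318 on day 4 to 524 on day 8 (-0.36, SE 0.16, adjusted p = 0.069).

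**Figure D3:**
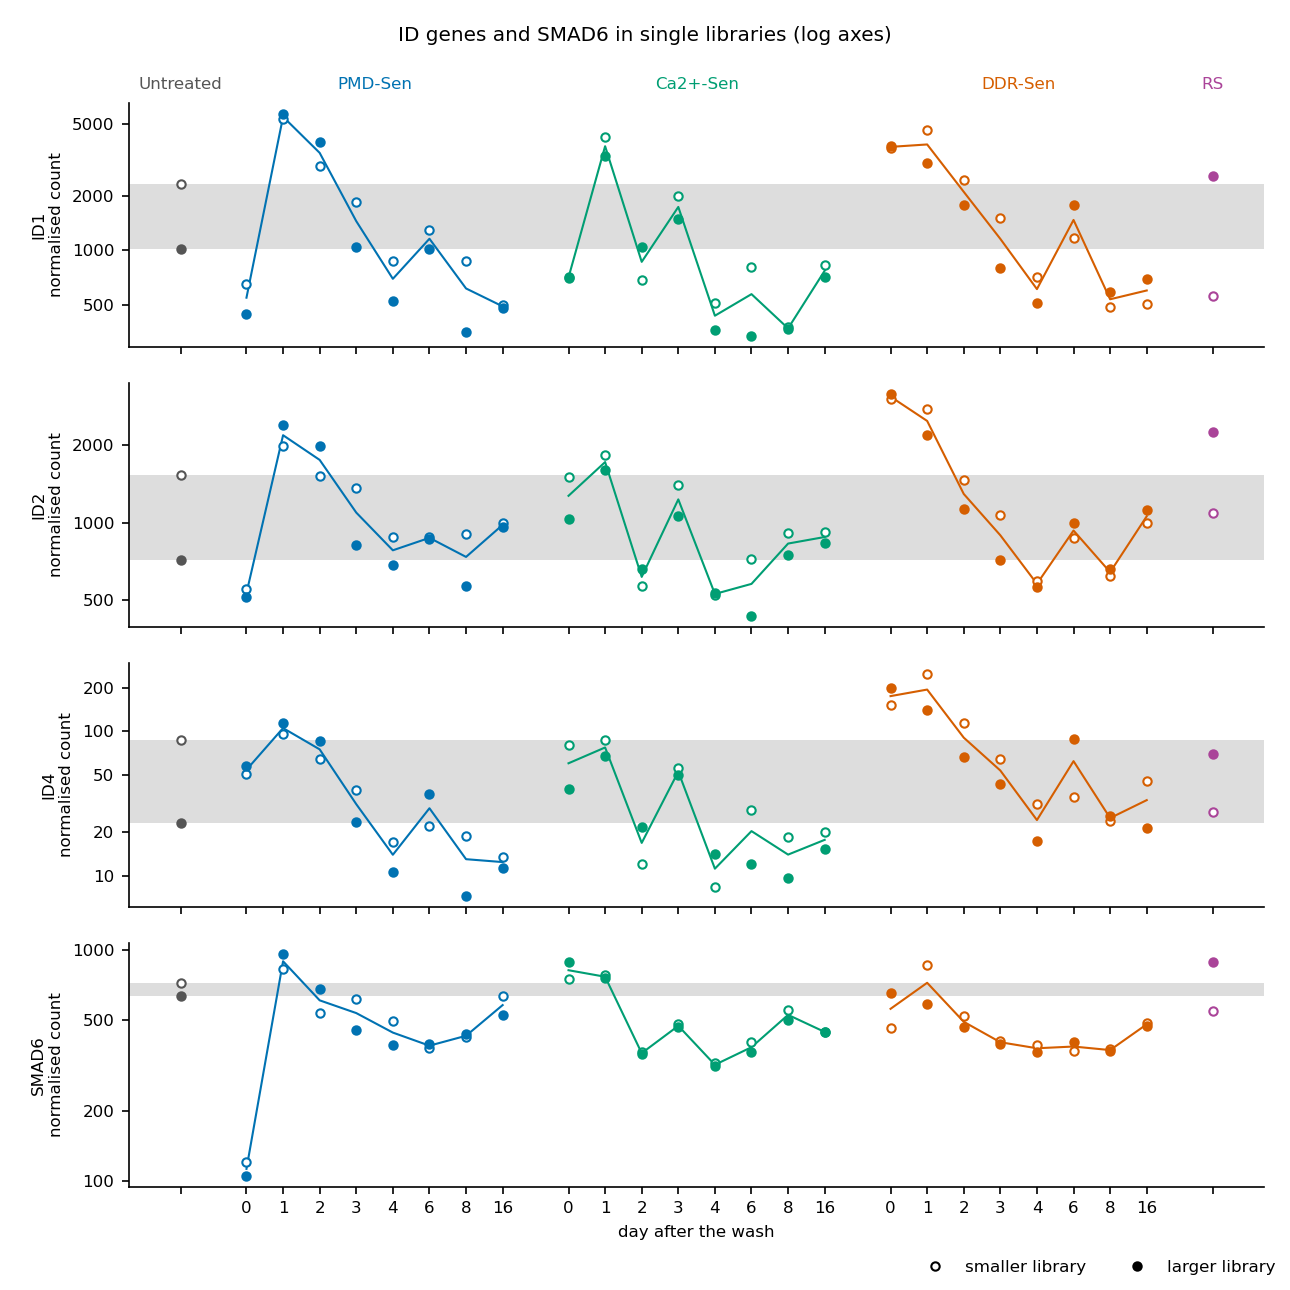
Normalised read counts (vertical log axes) of ID1, ID2, ID4 and SMAD6 in single libraries by inducer and day after the wash (horizontal axis). Open circles are the smaller and filled circles the larger library of a group, lines join the means of both, and grey bands span the untreated pair. SMAD6 in PMD-Sen on day 0 (120.1 and 105.2) lies far under every other group.

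The inducers were compared with each other on days 0 and 16 through the difference of their log2 fold changes. The shared untreated error is counted more than once in this test, which makes calls too few. On day 0 PMD-Sen and DDR-Sen differed for 4 of the 8 genes, where 27.4% of all tested genes did. PMD-Sen was lower for ID1 (difference -2.78, SE 0.84, adjusted p = 0.0054; levels 547 and 3745), ID2 (-2.53, SE 0.74, adjusted p = 0.0035; 534 and 3078), BMP4 (-2.37, SE 0.30) and SMAD6 (-2.31, SE 0.31). All 4 differences put both PMD-Sen libraries below both DDR-Sen libraries.

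PMD-Sen and Ca2+-Sen also differed for 4 genes on day 0 (36.9% of all tested genes). BMP4 gave the largest difference of all, -4.51 (SE 0.40, adjusted p = 5.4e-28), with levels of 155.7 and 3543. SMAD6 differed by -2.87 (SE 0.28) and BMP2 by -0.96 (SE 0.29). BMP6 was the one gene higher in PMD-Sen, by 2.15 (SE 0.71, adjusted p = 0.0088; levels 122 and 27.7). ID1 was low in both, at 547 and 708, and the difference of -0.37 (SE 0.84) was not called. Between Ca2+-Sen and DDR-Sen, BMP4 was higher by 2.14 (SE 0.37) and ID1 lower (-2.40, SE 0.80) in Ca2+-Sen, 2 of the 8 genes where 35.5% of all tested genes differed.

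The first day after the wash was compared with day 0 in the same way. In PMD-Sen, 4 genes rose (27.7% of all tested genes were called). ID1 rose from 547 to 5498 (3.33, SE 0.85, adjusted p = 5.9e-04), SMAD6 from 112.6 to 896 (3.00, SE 0.28, adjusted p = 5.9e-24), ID2 from 534 to 2182 (2.03, SE 0.75, adjusted p = 0.027) and BMP4 from 155.7 to 296 (0.93, SE 0.32, adjusted p = 0.015). Against untreated cells, ID1 and BMP2 were called higher and BMP4 lower on day 1, and ID2 and SMAD6 were not called.

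In Ca2+-Sen, BMP2 and BMP4 fell and BMP6 and ID1 rose from day 0 to day 1 (34.9% of all tested genes were called). BMP4 fell from 3543 to 496 (-2.84, SE 0.37) and BMP2 from 893 to 303 (-1.56, SE 0.27). ID1 rose from 708 to 3776 (2.41, SE 0.82, adjusted p = 0.012) and BMP6 from 27.7 to 105.1 (1.94, SE 0.69, adjusted p = 0.017). SMAD6 had -0.10 (SE 0.22) and was not called. In DDR-Sen the test called 0 of the 8 genes (3.35% of all tested genes). An unadjusted p under 0.05 was found for 0 of the 8, beside 11.6% of all tested genes. ID1 was at 3745 on day 0 and 3862 on day 1.

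On day 16 the same test called 0 of the 8 genes between any pair of inducers. The shares of all tested genes were 0.187% between PMD-Sen and DDR-Sen, 2.6% between PMD-Sen and Ca2+-Sen and 6.06% between Ca2+-Sen and DDR-Sen, and 0, 1 and 2 of the 8 genes had an unadjusted p under 0.05, beside 2.74%, 10.2% and 14.1% of all tested genes. BMP4 had 5485 in PMD-Sen, 4049 in DDR-Sen and 2218 in Ca2+-Sen, and BMP6 had 123.4, 240.0 and 78.2. With the untreated error left out of the difference, a setting chosen after seeing the data, BMP4 was called between Ca2+-Sen and both others (adjusted p = 0.021 and 0.0054), and BMP6 between Ca2+-Sen and DDR-Sen (adjusted p = 0.00020). The latter, at adjusted p = 0.053 by the test itself, was also called with scaling by library totals. Without the untreated error these are 1 and 2 of the 8 genes, where that setting called 10.2% of all tested genes between PMD-Sen and Ca2+-Sen and 15.5% between Ca2+-Sen and DDR-Sen, so the counts are near the background.

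A list of 59 other genes of the pathway was read in the same way, and 41 of them were tested. They gave 314 calls in 1025 gene comparisons (30.6%, beside 18.5% for all tested genes). On day 0 the list gave 28 calls in PMD-Sen (6 higher, 22 lower), 28 in Ca2+-Sen (18 of them higher) and 14 in DDR-Sen (8 of them higher), where 38.3%, 48.5% and 26.7% of all tested genes were called. The median log2 fold change of the list on that day was -0.52 in PMD-Sen, 0.20 in Ca2+-Sen and -0.01 in DDR-Sen, beside -0.0056, -0.0285 and -0.0045 over all tested genes. On day 16 there were 12, 13 and 15 calls among the 41 genes, and 16 in RS, beside 20.3%, 11.3%, 28.7% and 22.3% of all tested genes.

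Of 11 other ligands, 3 were tested and 2 were called somewhere. They were called 15 times higher and 13 times lower in 75 gene comparisons (37.3%, beside 18.5% for all tested genes). GDF6, a ligand of the same branch, fell from 751 to 62.7 normalised counts in PMD-Sen on day 0 (-3.58, SE 0.27, adjusted p = 1.0e-37). It stayed lower there through day 6 and was higher on day 16 (0.58, SE 0.21), and in RS it reached 3651 (2.28, SE 0.23). GDF5, its close relative, was lowest in PMD-Sen on day 1 (-3.20, SE 0.37). In DDR-Sen on day 0 GDF5 was instead higher (1.45). Like BMP4, both were low on the first days of PMD-Sen and higher in it on day 16.

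Receptors and co-receptors gave 21 calls higher and 11 lower over 9 tested genes, 14.2% of 225 gene comparisons and under the 18.5% of all tested genes. ACVRL1, a type I receptor, fell in PMD-Sen on day 0 from 562 to 134 (-2.07, SE 0.25) and rose in Ca2+-Sen on day 0 (1.43). RGMB, a co-receptor, fell in Ca2+-Sen on day 0 from 4504 to 1179 (-1.93, SE 0.14). ACVR2A, a type II receptor, was higher in RS (0.96, SE 0.36) and lower in 0 of the 25 comparisons.

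SMADs and their regulators gave 25 calls higher and 31 lower over 10 tested genes. This was 22.4% of 250 gene comparisons, near the 18.5% for all tested genes. SMAD9, a signal-carrying SMAD, fell in PMD-Sen on day 0 (-1.41, SE 0.28). BAMBI, a decoy receptor, was called higher 9 times and lower 0 times, with 1.58 (SE 0.13) in Ca2+-Sen on day 0, and on day 16 with 1.06 after SDS, 0.51 after KCl and 1.21 after DXR. RS had 1.37. SKIL, a SMAD co-repressor, rose early and fell late, with 1.79 (SE 0.12) in Ca2+-Sen on day 0 and 12 lower calls among later days. SMAD7, the other inhibitory SMAD, was called once, in Ca2+-Sen on day 0 (1.18, SE 0.52, adjusted p = 0.046). In PMD-Sen on day 0, where SMAD6 fell, SMAD7 had 0.17 (SE 0.53).

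Other antagonists gave 50 calls higher and 59 lower over 10 tested genes. This was 43.6% of 250 gene comparisons, beside 18.5% for all tested genes. FST, which encodes follistatin and binds activins and some BMPs, was lower in 19 comparisons and higher in 2. It was at 11076 normalised counts in untreated cells and 2694 in Ca2+-Sen on day 8 (-2.04, SE 0.09). BMPER, a secreted modulator of BMPs, was higher in 14 and lower in 4, with its largest change in Ca2+-Sen on day 0 (-2.10, SE 0.22). NOG, the antagonist noggin, was also higher in 14, and lower in 1 (PMD-Sen on day 0, -1.23); it was chosen after its values were seen.

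Other targets gave 19 calls higher and 13 lower over 6 tested genes. This was 21.3% of 150 gene comparisons, near the 18.5% for all tested genes. ATOH8, a BMP target in several cell types, rose in Ca2+-Sen on day 0 (1.37, SE 0.49) and MSX1, a homeobox gene, rose in RS (1.35, SE 0.32). RUNX2, a regulator of bone formation, fell in PMD-Sen on day 0 (-1.34, SE 0.25). The E protein genes, partners of ID proteins, were mostly called lower. TCF3, TCF4 and TCF12 gave 52 calls lower and 5 higher in 75 gene comparisons (76%, beside 18.5% for all tested genes). All 75 use the same untreated pair, and single libraries were not examined for these genes. Their means over the groups were 1040 to 2992, while the background takes in all genes with a mean of at least 10, so these shares are not of like genes. TCF12 was lower in 21 of 25 and higher in 0, with -1.04 (SE 0.11) in DDR-Sen on day 6. TCF3 was lower in 18 and higher in 1, with -0.70 (SE 0.11) in DDR-Sen on day 0. TCF4 was lower in 13 and higher in 4, with -0.996 (SE 0.15) in DDR-Sen on day 8.

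**Figure D4:**
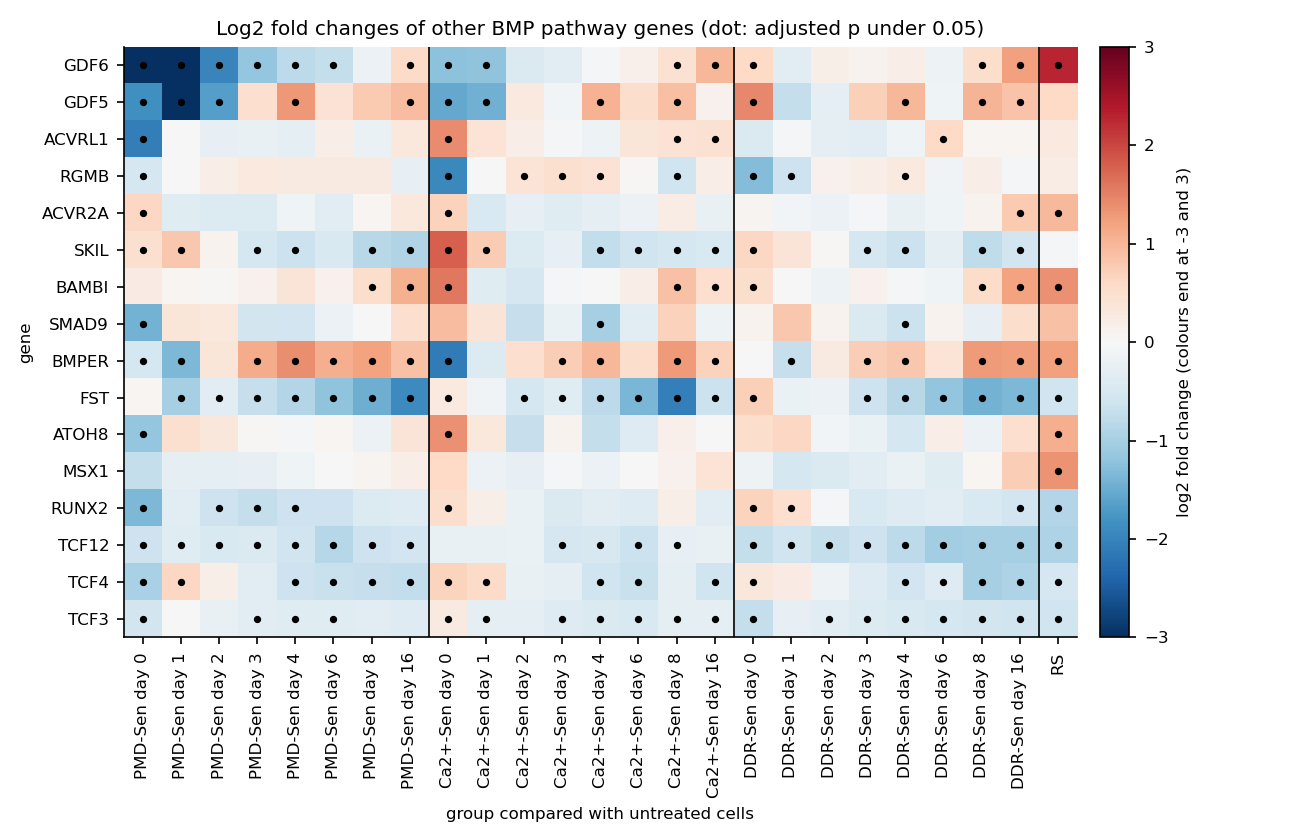
Log2 fold change against untreated cells (colour, ending at -3 and 3) of 16 pathway genes (vertical axis), up to 3 for each role, in the 25 comparisons (horizontal axis). Dots mark an adjusted p under 0.05, and GDF6, GDF5, ACVRL1 and SMAD9 are low in PMD-Sen on day 0.

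Across the 26 groups, the levels of ID1, ID2 and ID4 went together. Pearson's r of the log2 levels was 0.86 for ID1 and ID2, 0.85 for ID1 and ID4 and 0.82 for ID2 and ID4, and SMAD6 had 0.74 with ID2, 0.55 with ID1 and 0.37 with ID4. GREM1, though low, had 0.72 with ID1, 0.59 with ID2 and 0.67 with ID4. BMP4 and ID1 had an r of -0.63. BMP2 had an r of -0.19 with ID1 and 0.44 with BMP4. These are descriptions over groups that share 1 size factor per library, days of 1 course and depth.

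ID1, ID2, ID4 and SMAD6 also went together between both libraries of a group. The library with more ID1 had more ID2 in 24 of 26 groups, more ID4 in 21 and more SMAD6 in 21. Pearson's r of the log2 ratios of the larger to the smaller library was 0.89 for ID1 and ID2, 0.80 for ID2 and ID4, 0.68 for ID1 and ID4 and 0.66 for ID1 and SMAD6, and for GREM1 it was 0.52 with ID1 and 0.62 with ID2. BMP4 ran the other way, with more of it in the library with more ID1 in 8 of 26 groups (r = -0.72), while BMP2 did so in 13 (r = 0.36). Without RS, which stands apart, r was 0.84 for ID1 and ID2, 0.62 for ID1 and ID4, 0.47 for ID1 and SMAD6, -0.67 for ID1 and BMP4 and -0.10 for ID1 and BMP2. The largest ratios of ID1 were those of RS and, among the others, of PMD-Sen on day 8 (877 and 353 normalised counts). The ratio of ID1 in DDR-Sen on day 1 rests on counts recovered only to close solutions. Errors of the size factors are shared by all genes of a library and their part was not tested.

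**Figure D5:**
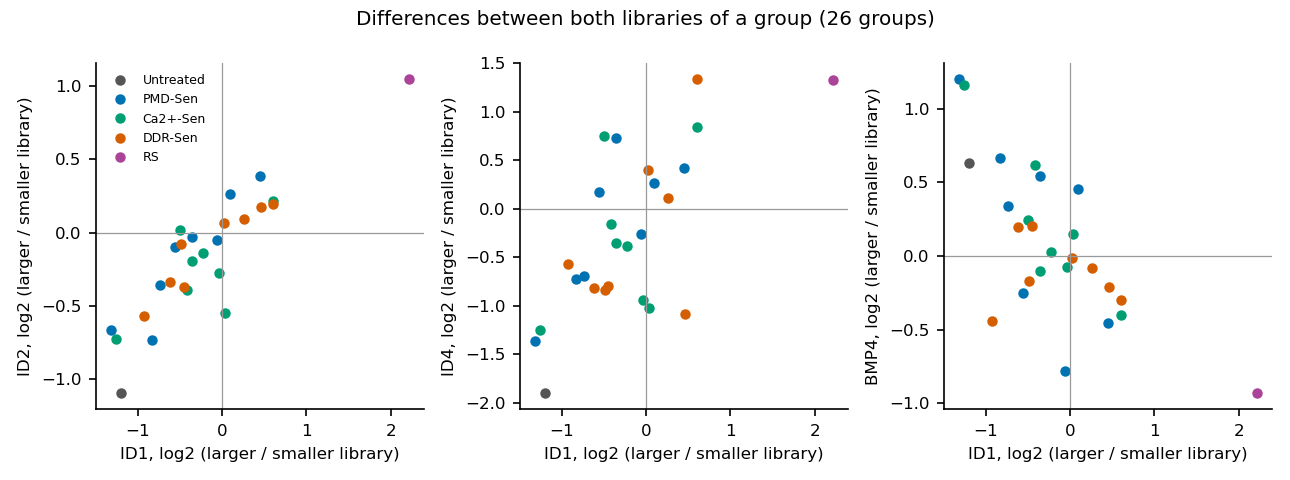
Log2 ratio of the larger to the smaller library of a group for ID1 (horizontal axes) and for ID2, ID4 and BMP4 (vertical axes), 1 point for each of 26 groups, coloured by inducer. Points lie along a rising line for ID2 (r = 0.89) and ID4 (r = 0.68) and along a falling one for BMP4 (r = -0.72).

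By the Pearson correlation of log2 levels over the 26 groups, and among 10949 other genes with a mean of at least 100, the level of BMP4 was most like those of PTCH1 (r = 0.97), ATXN7L1 (0.94) and STAG3 (0.94). That of SMAD6 was most like GLI2 (0.96), PFKFB3 (0.89) and PHLDB1 (0.89), and that of ID1 like SAMD11 (0.92), DCBLD1 (0.91) and SERTAD1 (0.91). For ID2 the nearest were IER5L (0.89), ID1 itself (0.86) and SMAD7 (0.85). BMP2 had no gene as close, the nearest being ITPR2 (0.76), ABHD15 (0.75) and SLC1A2 (0.75).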

How the data were processed

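WI-38 mRNA-seq was deposited as 52 tables, 25 of them distinct, each comparing both libraries of 1 group with the same untreated pair. Per the submitters' notes, reads were processed with Trim Galore, HISAT2, HTSeq, featureCounts and DESeq2 on GRCh38. Versions, annotation and the counting strand are not given in the sources used here. The tables are the authors' own comparisons and hold no counts of single libraries. For each gene the authors deposited a mean of size-factor normalised counts, used as a signal, a log2 fold change, the error of that change, and a p-value, which equals that of the Wald test. These columns were used since the tables given here hold no values of single samples. The authors' adjusted p-values were not used. Other columns of per-sample values numbered 0.

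Group levels were set on 1 scale by the untreated level of 8645 abundant genes (mean above 200 in each table). Genes with a mean of at least 10 over the 26 groups were tested (15479), with the Wald p-value adjusted by Benjamini-Hochberg within each comparison and a threshold of 0.05. Differences between inducers and between days set the difference of 2 log2 fold changes against its error, taken as the square root of the sum of both squared errors. Read counts of the 8 tested genes in single libraries were recovered from the digits of the means, and matched the tabled fold changes. In DDR-Sen on day 1, BMP4 and ID2 were settled by the fold change and ID1 only to close solutions. The recovered libraries carry no replicate number and are called smaller and larger. Size factors were read from the means of genes with few reads, and a library's total is its size factor times the summed level of its group.

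Groups came from the sample labels. Of the named genes, 1 is not reported here. The 9 genes and all lists were chosen with earlier results of these data known. Named genes are all 9, for each role of the pathway list the up to 3 with the largest called change among those with a mean of at least 100, and for each of the 9 with a mean of at least 100 the 3 genes with the highest Pearson correlation of log2(level + 10). NOG, SMAD7 and TUBB were added after their values were seen. Promoters came from RefSeq (GRCh38.p14) and gene positions from GENCODE v29. Alternatives were a mean of at least 100, no filter, a log2 fold change of at least 1, centring, scaling by library totals, leaving out libraries, Spearman correlation and another pseudocount, and, chosen after seeing the data, leaving the untreated error out of differences. The scripts were tested on simulated data. Values were computed in Python 3.11.15 with SciPy 1.17.1, pandas 2.3.3 and NumPy 2.4.6, and plotted with matplotlib 3.10.9.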

Additional observations from a re-analysis of the deposited data

Results flagged for a closer look

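Effects of the inducers, or of days 0 and 1, differed by the test of the difference itself in 18 cases, given here as differences of log2 fold changes against the shared untreated libraries. Between PMD-Sen and DDR-Sen on day 0 they were -2.37 for BMP4, -2.78 for ID1, -2.53 for ID2 and -2.31 for SMAD6. Between PMD-Sen and Ca2+-Sen on day 0 they were -0.96 for BMP2, -4.51 for BMP4, 2.15 for BMP6 and -2.87 for SMAD6. Between Ca2+-Sen and DDR-Sen on day 0 they were 2.14 for BMP4 and -2.40 for ID1. From day 0 to day 1 PMD-Sen moved by 0.93 for BMP4, 3.33 for ID1, 2.03 for ID2 and 3.00 for SMAD6. Over the same day Ca2+-Sen moved by -1.56 for BMP2, -2.84 for BMP4, 1.94 for BMP6 and 2.41 for ID1. With 2 libraries in each group no library could be examined as an outlier within its group.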

How the results depend on the processing

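The 51 calls of the 8 genes became 30 when a log2 fold change of at least 1 was also asked for, and the 314 calls of the pathway list became 79; 12 of the 14 falls of SMAD6 were among those lost. With a mean of at least 100 there were 47 and 322 calls, with no filter 41 and 284, with centring 50 and 317, and with scaling by library totals 51 and 322. No call of the 8 genes changed direction under these settings. The fall of ID1 in DDR-Sen on day 16 was lost with no filter, with centring and by library totals, and that of SMAD6 on the same day with no filter and by library totals. No filter also ended 8 further calls: BMP2 in PMD-Sen on day 3, BMP4 in DDR-Sen on day 0, BMP6 in Ca2+-Sen on day 0, ID1 in PMD-Sen on day 0, ID2 in DDR-Sen on day 0, and ID4 in PMD-Sen on days 4 and 16 and in Ca2+-Sen on day 4. With a mean of at least 100, the 8 calls of BMP6 and ID4 are not tested, and 4 were gained: BMP2 in Ca2+-Sen on day 1, ID1 in Ca2+-Sen on day 0, and SMAD6 in PMD-Sen on day 1, its one higher call, and in DDR-Sen on day 2. Library totals gained SMAD6 in PMD-Sen on day 1 and in Ca2+-Sen on day 8. Without an untreated error in the difference, the calls between inducers rose from 10 to 20 and those between days 0 and 1 from 8 to 9. On day 0 that setting called 42.3% of all tested genes between PMD-Sen and DDR-Sen. It called 52% between PMD-Sen and Ca2+-Sen and 51.1% between Ca2+-Sen and DDR-Sen. On day 16 these shares were 1.39%, 10.2% and 15.5%. Between days 0 and 1 it called 41.4% in PMD-Sen, 49.8% in Ca2+-Sen and 12.5% in DDR-Sen. Under the other settings the calls of the 8 genes were 9 to 12 between inducers and 7 to 8 between days. By Spearman correlation, 7 of the 15 genes named as most alike were still among the 3 nearest. Leaving out each library in turn changed the sign of 0 of the 51 called values and moved 14 by more than 1.5 times: all 7 of ID1, all 5 of ID4 and the 1 of ID2, which rest on the untreated pair, and that of BMP6 in Ca2+-Sen on day 0. No paired analysis was possible because the recovered libraries carry no replicate number. GREM1 had 14 and 6 reads in the untreated pair, which limits its precision, and ID3 was not tested.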
